A study of Neurospora crassa with 86 samples.

Results

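The genes described here are those whose transcripts were scarcer without nit-2, the GATA-type activator of nitrogen metabolism in the filamentous fungus Neurospora crassa, in nearly every medium in which its deletion strain was grown. They were chosen from group means of log2(FPKM + 1), where FPKM is fragments per kilobase of transcript, scaled to library size. An entry was taken if it lay at least 1 lower in Δnit-2 than in wild type of the same medium in 4 or more of 5 media, and reached a mean of 5 FPKM or more in some wild type group. Of the joint table's 9598 entries, deposited by the authors, 86 met these conditions, and 79 remained after 9 identifiers were set aside, which are those of nit-2, nmr and other nitrogen genes that carry a symbol. One of the 79 merges a pair of neighbouring genes. Only 3 have a gene symbol: lao (NCU01066), L-amino acid oxidase, con-8 (NCU09235), a gene induced during conidiation, and tom5 (NCU02474), named for a component of the outer mitochondrial membrane translocase. The others are given by locus number, since no product is named in the sources used here.

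The series holds 86 libraries of mycelial RNA in 27 groups of strain and medium, each with 3 libraries unless stated. Conidia were grown for 24 h at 25 °C in constant light in Vogel's medium with 2% sucrose, and the mycelium was washed and moved to a test medium for 4 h. Full medium held 2% sucrose and 25 mM ammonium nitrate. Single nitrogen sources replaced the ammonium nitrate: 50 mM sodium nitrate, isoleucine, proline, tryptophan, ammonium chloride, glutamate or glutamine, 112 mM alanine, 200 mM glycine or 344 mM arginine. Nitrogen starvation left nitrogen out, carbon starvation left the sugar out, and 2 mM mannose replaced the sucrose in 1 further medium. Wild type, FGSC 2489, was grown in all 14 media, with 5 libraries in full medium and 6 under nitrogen starvation. The Δnit-2 strain was grown in full medium, nitrate, isoleucine, proline and tryptophan, the 5 media of the choice. Δnmr was grown in full medium and without nitrogen, a strain labelled Δnit-4 in nitrate and without nitrogen, and Δamn-1 in mannose, isoleucine, proline and tryptophan. Each deletion may be 1 clone, as its isolate is not given in the sources used here.

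In this fungus ammonium and glutamine are preferred nitrogen sources. While they are plentiful, the NMR protein binds NIT2 and keeps it from activating genes for other sources. When they run out, NIT2 binds GATA elements and switches on genes for the uptake and breakdown of nitrate, purines, amino acids and proteins, often together with a factor for 1 pathway, such as NIT4 for nitrate. AMN1 is a factor of amino acid metabolism. Transcripts that depend on NIT2 are therefore usually read against glutamine or ammonium.

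The deposited values checked the deletions as follows. nit-2 lay at 3.30 to 6.61 FPKM in the 15 Δnit-2 libraries and at 35.0 to 73.7 in the 17 wild type libraries of the same media. nmr lay at 1.28 to 2.80 FPKM in Δnmr and at 8.69 to 26.5 in wild type of the same media, and NCU00445, the amn-1 gene from background knowledge, at 0.274 to 0.392 in Δamn-1 and 23.5 to 37.1 in wild type on mannose. For nit-4 the libraries labelled as its deletion did not stand below wild type: 4.35 to 8.56 FPKM against 4.87 to 6.10 in nitrate, and 2.72 to 4.21 against 2.69 to 4.30 without nitrogen. Which part of nit-4 was deleted is not given in the sources used here. Estimated depths ran from 6890000 to 19110000 fragments a library, and deeper libraries carry less counting error. Mitochondrial transcripts took 0.0452 to 0.174% of FPKM in the groups of ammonium, nitrate, isoleucine, proline and tryptophan, and 0.00285 to 0.0258% in the others, so these groups stand apart in more than nitrogen source. Each comparison of a deletion with wild type was made within a medium, but the share also differed between strains there, as given for Δnmr and labelled Δnit-4. In proline no wild type library held less than 0.0952%. The highest Δnit-2 library stood at 0.0590% and the highest Δamn-1 library at 0.0802%. In every other medium of these deletions the share overlapped wild type. The part of this share in the differences was not tested. In bulk RNA, fewer cells expressing a gene and less RNA per cell cannot be told apart.

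A pair of adjacent genes separated strains in a way no other entry of the table did. NCU09968 and NCU09969 were at 0.0566 and 0.0334 FPKM or below in 24 libraries: all of Δnmr, all labelled Δnit-4, and Δnit-2 in its 4 single-source media. In the other 62 libraries, which are all of wild type and Δamn-1 and Δnit-2 in full medium, NCU09968 lay at 6.09 to 46.2 and NCU09969 at 0.455 to 21.8. In Δnit-2 in full medium they lay at 17.9 to 19.7 and 5.05 to 5.72. The Δnit-2 libraries of full medium thus stand apart from the other Δnit-2 libraries in these genes, and a difference between strain stocks cannot be told apart from one between media. No fold is given for the pair against libraries where it is at or near 0.

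The set itself, described by the values that chose it, was lower without nit-2 in all 5 media for 38 entries and in 4 of 5 for 41. In isoleucine 78 of the 79 lay at least 1 log2 lower, in proline 78, in tryptophan 72, in nitrate 69 and in full medium 57. Over all 8558 genes tested the shares at least 1 lower were 2.44% in isoleucine, 4.46% in proline, 2.97% in tryptophan, 5.43% in nitrate and 1.43% in full medium. None of the 79 lay at least 1 higher in any of these media, where 2.9%, 4.73%, 4.01%, 3.77% and 1.33% of all genes did so in that order. Without NCU09968 and NCU09969 the entries lower in all 5 media were 38 and in 4 of them 39, with 76 lower in isoleucine, 76 in proline, 70 in tryptophan, 67 in nitrate and 57 in full medium. Since the choice used these contrasts, the counts describe the set and no test is given. The median difference of the 79 was -2.02 in isoleucine, -2.17 in proline, -2.06 in tryptophan, -1.62 in nitrate and -1.28 in full medium. Without nit-2 the median level was 19.2% of wild type in proline, 19.8% in tryptophan, 20.8% in isoleucine, 25.2% in nitrate and 32.2% in full medium. Of the 79, 78 had every Δnit-2 library below every wild type library in isoleucine, 78 in proline, 78 in tryptophan, 76 in nitrate and 69 in full medium (without the pair 76, 76, 76, 74 and 69). Of all genes tested 17.5%, 26.7%, 22.9%, 25.2% and 14.4% did so in the same order. At the edge of the rule, the fourth largest decrease was 1.01 for NCU01185, NCU09406 and NCU16993, just inside. It was 0.994 for NCU01240, 0.988 for NCU04228 and 0.971 for NCU04569, just outside.

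**Figure D1:**
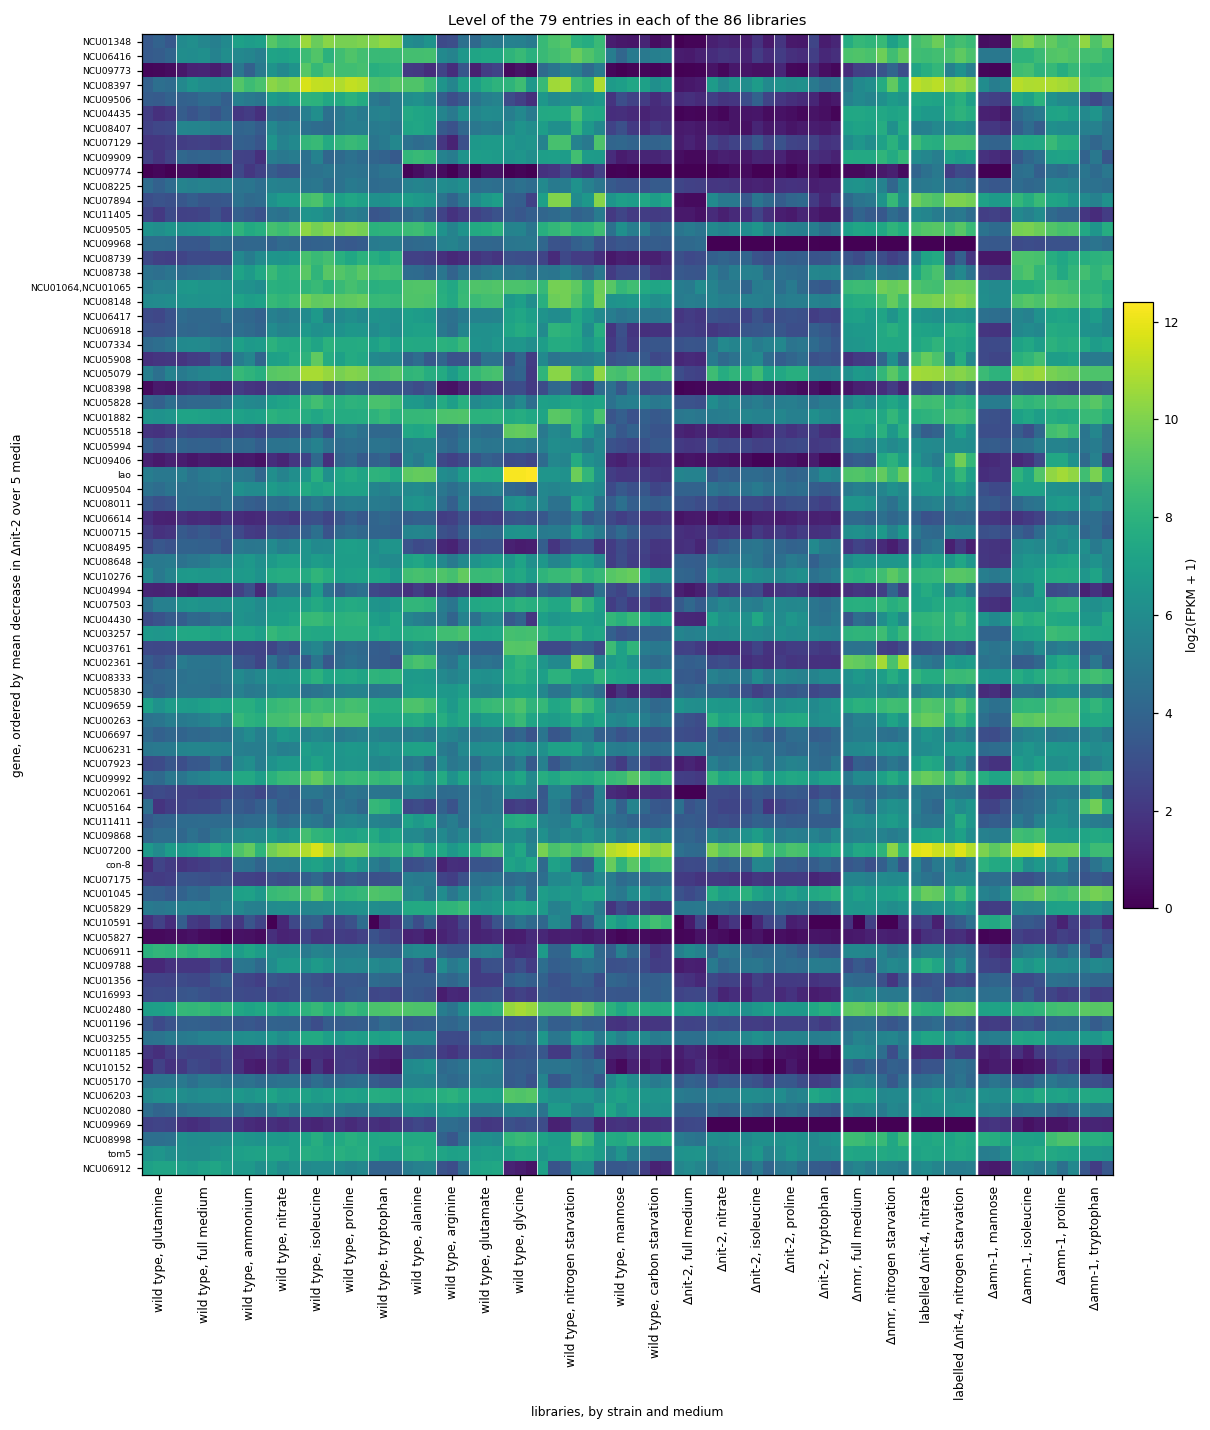
Level of each of the 79 entries (rows, by mean decrease in Δnit-2) in each of the 86 libraries (columns, by strain and medium), as log2(FPKM + 1) by colour; white lines part the groups. The 15 Δnit-2 columns are darker than the wild type columns of the same media in most rows, and NCU09968 and NCU09969 are near 0 in 24 libraries.

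NCU01348 showed the widest gap. Its wild type libraries lay at 39.5, 50.5, 58.2, 60.3 and 70.2 FPKM in full medium, at 376, 405 and 557 in nitrate and at 769, 1169 and 1502 in isoleucine. Its Δnit-2 libraries lay at 0, 0.108 and 0.116 in full medium, at 1.1, 1.31 and 1.51 in nitrate and at 0.851, 0.966 and 2.47 in isoleucine. Wild type in proline reached 963 ± 56 FPKM (SD, n = 3) and in tryptophan 1183 ± 144 FPKM (SD, n = 3), against 1.44 ± 1.17 FPKM (SD, n = 3) and 2.5 ± 2.19 FPKM (SD, n = 3) without nit-2. No library of the deletion came near any wild type library of its medium. The mean difference over the 5 media was -7.89 log2.

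NCU06416 followed with a mean difference of -6.15 log2. In wild type it held 44.2, 65.7, 66.4, 66.9 and 71.2 FPKM in full medium and 395, 398 and 508 in proline. Without nit-2 the values were 0.841, 0.908 and 1.19 in full medium and 1.97, 2.3 and 3.67 in proline. The groups did not overlap in any of the media. NCU09773 differed by -6.03 log2 on average but was nearly silent in wild type in full medium, at 0.723, 0.989, 1.37, 1.4 and 1.76 FPKM. In isoleucine its wild type libraries held 315, 476 and 566, against 0.477, 0.493 and 0.602 in Δnit-2.

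NCU08397 had higher wild type levels in isoleucine than the genes above. Wild type held 2355, 2476 and 3227 FPKM in isoleucine and 991, 1187 and 1231 in nitrate. Δnit-2 held 60.9, 67.2 and 110.3 in isoleucine and 54.7, 88.3 and 111 in nitrate, so 54.7 FPKM or more remained there. In full medium 54.1, 58.7, 62.5, 63.8 and 82 in wild type stood beside 0.644, 0.728 and 0.955 in Δnit-2, where almost nothing was left. NCU04435 was a lower gene, with 36.9, 43.2 and 46 FPKM in wild type in tryptophan and 0.126, 0.445 and 0.56 in Δnit-2. All its 15 Δnit-2 libraries lay under 1 FPKM. Of the remaining genes with the largest mean decreases, NCU09506 differed by -4.37, NCU08407 by -4.23, NCU07129 by -3.76, NCU09909 by -3.47, NCU09774 by -3.39, NCU08225 by -3.30 and NCU07894 by -3.28.

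**Figure D2:**
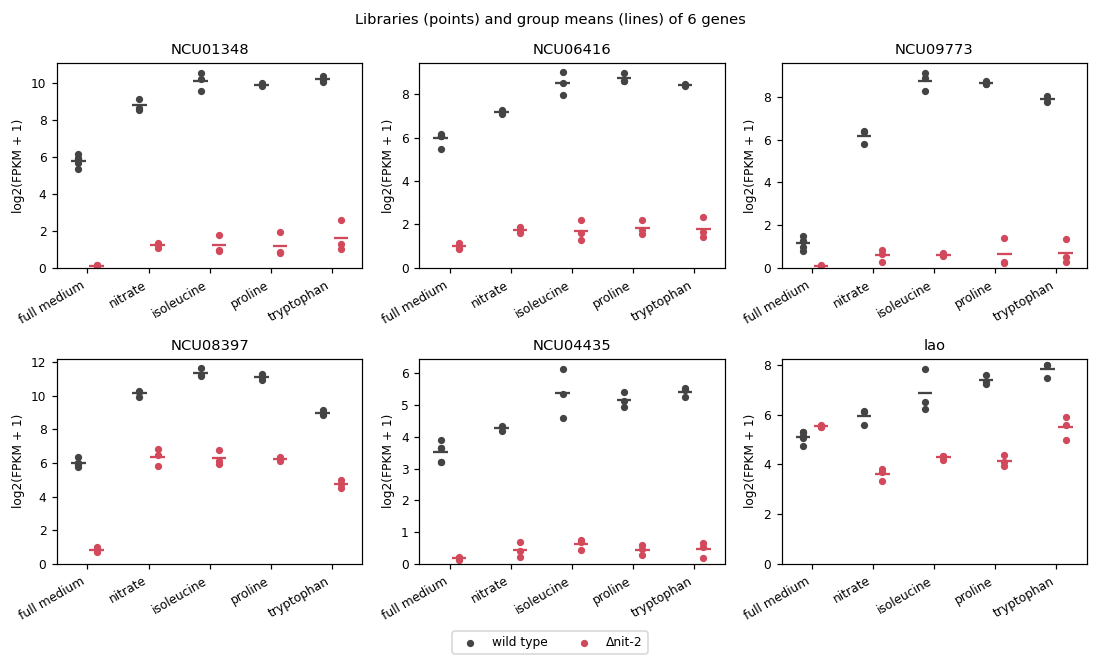
Libraries (points) and group means (lines) of log2(FPKM + 1) for 6 genes in wild type (grey) and Δnit-2 (red) in the 5 media of the choice. Wild type points lie above those of Δnit-2 in every panel and medium except lao in full medium, where the 3 Δnit-2 points lie at 43.7 to 47.5 FPKM, above the 5 of wild type (NCU01066).

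Of the 41 entries that missed 1 medium, 22 missed full medium (20 without NCU09968 and NCU09969), 10 nitrate, 7 tryptophan, 1 isoleucine and 1 proline. lao (NCU01066) is among the first. In full medium it lay at 25.7, 32.4, 33.9, 38.8 and 38.8 FPKM in wild type and 43.7, 44.4 and 47.5 in Δnit-2, so that every Δnit-2 library was above every wild type library, by 0.42 log2 in the means. In proline it lay at 151, 158 and 191 in wild type and 14.2, 16 and 19.5 in Δnit-2. Over the 4 single-source media the difference ran from -3.26 to -2.34. Here the deletion libraries were all below.

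con-8 (NCU09235) had the same form, at 76.5, 82.8 and 124 FPKM in wild type in proline against 10.2, 11.5 and 12.2 in Δnit-2. In full medium it was low in both, at 2.6, 3.16, 3.74, 4.47 and 4.97 and 5.41, 6.01 and 6.13. con-8 is 1 of 8 conidiation markers listed here (con-6, con-8, con-10, con-13, eas, fl, acon-3 and ccg-9), and the only 1 of them that was at least 1 lower in 4 or more of the 5 media. The summed level of the 8 lay at 220 to 325 FPKM in wild type and 90.2 to 129 in Δnit-2 in proline, and in nitrate at 220 to 337 and 457 to 661. In isoleucine the sums were 504 to 905 in wild type and 389 to 495 in Δnit-2, in tryptophan 209 to 417 and 116 to 145, and in full medium 51.0 to 134 and 28.5 to 31.1. The sums were thus lower in Δnit-2 in 4 media, without overlap, and higher in nitrate. A sum follows its most abundant markers, and single markers differed in both directions in each of the 5 media. The part of conidiation in the difference of con-8 was not tested. tom5 (NCU02474) lay at 69.4, 69.5, 74.9, 86.3 and 95.4 FPKM in wild type and 80, 81.2 and 86.2 in Δnit-2 in full medium, a difference of 0.07 log2. In nitrate it lay at 121, 149 and 150.3 and 40.6, 49 and 54.2, and its difference there and in the other 3 media was -1.53 to -1.22.

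Others of the 22 were NCU05164, 0.96 higher in Δnit-2 in full medium, NCU08739, 0.20 higher, and NCU09774, which was low in full medium in both strains. Since NCU09968 and NCU09969 set the Δnit-2 libraries of full medium apart from the rest, the choice was also made without that medium. Of the 79 entries 60 were lower in all 4 other media, and 58 without that pair.

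The 79 entries hold 80 genes, of which 25 (31.2%) lie next to another gene of the set on their chromosome. They form 10 runs, 7 of 2 genes (NCU09968 and NCU09969 among them), 1 of 3 and 2 of 4. Of the immediate neighbours of the set's genes 18.75% belong to the set, against 0.822% of all 9729 genes placed on chromosomes in the reference gene table, assembly NC12. The 25, the 18.75% and the run of 3 count NCU01064, which is in the set only through an entry merged with its neighbour NCU01065. Its place beside a gene of the set was thus given in advance. The longest runs were NCU11405, NCU09506, NCU09505 and NCU09504 on chromosome III, from position 85931 to 99187, and NCU05827 to NCU05830 on chromosome VII, from 3955067 to 3972158. In the per-sample values, their mean differences over the 5 media ran from -4.40 to -2.03 and from -2.49 to -1.34. The genes on either side of the first run, NCU11406 and NCU09503, are not of the set. NCU06416, the second strongest gene, sits beside NCU06417 on chromosome III, from 1324965 to 1328491, and NCU08397 beside NCU08398 on chromosome VII, from 1093660 to 1102819. NCU09773 sits beside NCU09774 on chromosome II, from 4271243 to 4275266. NCU06911 and NCU06912 are neighbours on chromosome VII, from 744988 to 749114, and share a pattern of their own, described with glutamine.

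lao (NCU01066) lies in a run on chromosome V, from 2805379 to 2815486, with NCU01064 and NCU01065, the merged entry. In the per-sample values NCU01065 differed by -5.91 log2 on average and NCU01064 by 0.64, so the entry's decrease came from NCU01065. Its merged values understate that gene. Of the genes flanking the runs NCU09775, at -1.54, and NCU05826, at -1.03, lay at least 1 lower in the mean. Beyond the runs, NCU10152 lies next to pmg, a general amino acid permease gene, and NCU01196 next to am, NADP-specific glutamate dehydrogenase, both nitrogen genes set aside from the set. Reads of adjacent genes that overlap cannot be told apart where strand was not used in counting, and the use of strand is not given in the sources used here. Shares of genes in the set ran from 0.511% on chromosome I to 1.34% on chromosome VII. Median gene length was 2363.5 bases in the set and 2260 over all genes tested, and the median of the highest wild type group mean was 252 against 32.9 FPKM.

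**Figure D3:**
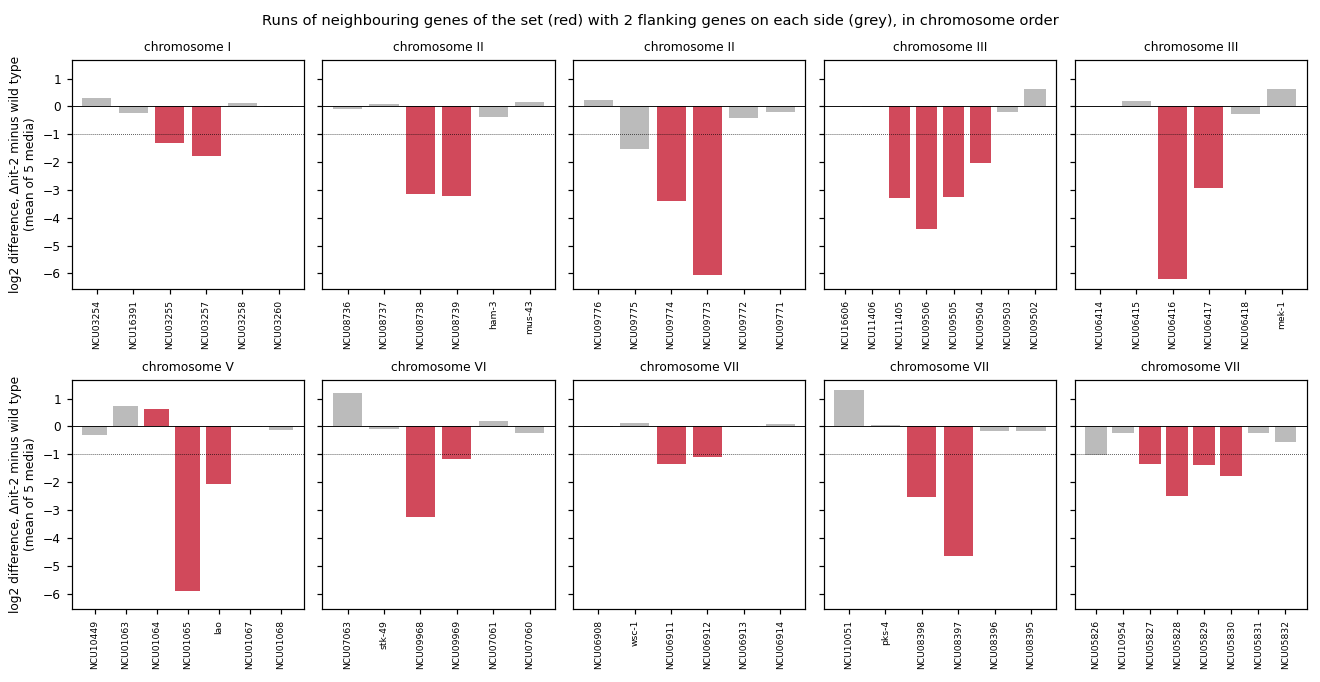
Mean log2 difference of Δnit-2 from wild type over the 5 media, from per-sample values, for the 10 runs of neighbouring genes of the set (red) and 2 flanking genes on each side (grey), in chromosome order and not to distance. The red bars reach below -1 except NCU01064, at 0.64, and the dotted line marks -1.

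Across the 14 media of wild type the set was low in glutamine, carbon starvation and mannose. The median of the 79 group means of log2(FPKM + 1) was 3.61 in glutamine, 3.62 in carbon starvation and 3.83 in mannose, and the medians of single libraries overlapped between glutamine and both others. It was 4.35 in full medium and 4.94 in ammonium, but 5.91 without nitrogen, 6.06 in alanine, 6.45 in isoleucine and 6.48 in proline. Of the 79, 25 had their lowest mean in glutamine, 19 in carbon starvation and 15 in mannose. The highest mean was in isoleucine for 19, glycine for 12, alanine for 11, nitrogen starvation for 9, arginine for 8 and mannose for 6. None had it in full medium or ammonium. The set took 0.308 to 0.353% of all FPKM in the glutamine libraries and 2.7 to 3.42% in those of isoleucine. In full medium 19 entries lay at least 1 log2 above glutamine and 0 below, beside 0.76% and 0.479% of all genes. Against ammonium, 27 entries lay at least 1 log2 higher in nitrate and 1 lower, beside 1.15% and 0.199% of all genes. Wild type libraries of full medium, nitrate, isoleucine, proline and tryptophan entered the choice, and a high level there helps an entry to meet it. The levels, rankings and counts of this paragraph are therefore a description. Shares of all genes with their highest or lowest mean in each medium are not given here.

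The wild type libraries of glutamine, alanine, arginine, glutamate, glycine, mannose and both starvations took no part in the differences that chose the set. The other 7 were compared with glutamine by limma's moderated test over all 8558 genes. Calls needed a Benjamini-Hochberg adjusted p below 0.05 together with 1 log2 or more in either direction. The 7 comparisons share the 3 glutamine libraries and are set side by side only. Mitochondrial transcripts took 0.00888 to 0.0112% of FPKM in glutamine. Every library of nitrogen starvation, glutamate, mannose and carbon starvation lay above this range, and every arginine library below it. Alanine and glycine overlapped it. The part of this share in the 7 comparisons was not tested. The condition of 5 FPKM in some wild type group could be met in these media as well, but 77 of the 79 met it within the 5 media of the choice.

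Without nitrogen 62 of the 79 rose against glutamine and 2 fell, and the median difference was 2.21 (all genes, 0.054). Of all genes 9.99% rose and 10.2% fell. NCU04435 rose from 2.29, 2.85 and 3.73 FPKM in glutamine to 168 at the lowest, 182 at the median and 465 at the highest in the 6 starved libraries. No starved library overlapped glutamine, and the difference was 5.76 ± 0.23 (SE; adjusted p = 9.74e-31). NCU08397 rose from 13.3, 19.6 and 22.1 to 282 at the lowest, 989 at the median and 1919 at the highest, by 5.31 ± 0.39 (SE; adjusted p = 1.44e-18). NCU07894 rose from 7.37 ± 0.566 FPKM (SD, n = 3) to 597 ± 551 FPKM (SD, n = 6), by 5.25 ± 0.49 (SE; adjusted p = 1.16e-14).

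The 6 starved libraries form 2 sets by their label numbers, 1 to 3 and 4 to 6. In the per-sample values NCU08397 lay at 320.4, 379 and 279 FPKM in libraries 1 to 3 and 2082, 1847 and 1709 in libraries 4 to 6. NCU07894 lay at 125, 62.8 and 94.7 and at 1249, 1164 and 1144, with no overlap between the sets. Of 78 set genes matched by identifier, 15 lay at least 1 log2 higher in libraries 4 to 6 and 14 lower. Without NCU09968 and NCU09969 these were 15 and 13 of 76. Over all genes 6.44% were higher and 5.19% lower. The summed level of the conidiation markers was 26.2 to 31.4 FPKM in glutamine and 71.6 to 7325 without nitrogen, and 6 of 8 rose. This sum was not split by set. In the per-sample values con-8 (NCU09235) lay at 17.7, 12.1 and 10.8 in libraries 1 to 3 and 146, 114 and 144 in 4 to 6, without overlap. Against glutamine, 60 entries rose and 1 fell with libraries 1 to 3 alone, and 54 rose and 5 fell with libraries 4 to 6 alone. The shares of all genes called in these fits are not given here.

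NCU06911 and NCU06912, the neighbours on chromosome VII, ran against the rest. NCU06911 lay at 239, 267 and 283 FPKM in glutamine and 174, 228, 239.8, 288 and 299 in full medium, its highest groups. It lay at 105, 99.1 and 79.4 in starved libraries 1 to 3 and 19.4, 16.6 and 16.5 in libraries 4 to 6, and its difference over all 6 was -2.70 ± 0.36 (SE; adjusted p = 1.62e-09). NCU06912 fell by 2.2 ± 0.40 (SE; adjusted p = 3.24e-06), but with libraries 1 to 3 alone its difference was -0.78 and not called, nor was it called in a fit of the 2 groups alone (limma adjusted p = 0.0655).

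Alanine gave the same count as starvation, 62 higher and 2 lower, beside 4.56% and 0.9% of all genes, with a median of 2.09 over the set and -0.05 over all genes. NCU09909 rose from 2.71, 4.26 and 4.38 FPKM to 292, 301 and 330.0, by 6.03 ± 0.31 (SE; adjusted p = 3.8e-25). NCU05518 rose by 5.49 ± 0.36 (SE; adjusted p = 1.28e-19) and NCU04435 by 5.35 ± 0.26 (SE; adjusted p = 1.87e-25). NCU06911 fell by 2.28 ± 0.41 (SE; adjusted p = 1.37e-05) and NCU06912 fell by 1.78 ± 0.47 (SE; adjusted p = 0.00201). Conidiation markers summed to 31.2 to 35.6 FPKM in alanine, against 26.2 to 31.4 in glutamine.

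In glutamate 49 entries rose and 1, NCU06911, fell, beside 3.12% and 1.4% of all genes, and the median was 1.52 over the set and -0.04 over all genes. Conidiation markers summed to 81.3 to 106 FPKM and 2 of 8 rose. NCU07129 rose from 2.89, 3.04 and 3.62 FPKM to 98.6, 107 and 109, by 4.66 ± 0.51 (SE; adjusted p = 8.62e-11). NCU09909 rose by 4.59 ± 0.31 (SE; adjusted p = 6.63e-19) and NCU04435 by 3.89 ± 0.26 (SE; adjusted p = 7.74e-19). NCU06911 fell by 2.67 ± 0.41 (SE; adjusted p = 9.35e-07), while NCU06912, at 147, 155 and 166 FPKM in glutamate and 131, 149 and 153 in glutamine, was not called.

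In glycine 54 rose and 6 fell, with a median of 1.56 (all genes, 0.08), in a medium where 19.8% of all genes rose and 14.5% fell. lao (NCU01066) reached its highest level of any group there, 5068, 5096 and 5452 FPKM against 30.2, 30.4 and 37.8 in glutamine. The difference was 7.27 ± 0.45 (SE; adjusted p = 2.06e-22). NCU05518 went from 2.56, 2.74 and 3.23 to 639, 660.3 and 719, by 7.46 ± 0.36 (SE; adjusted p = 1.57e-27), the largest rise of any entry in the 11 comparisons tested. NCU03761 rose by 6.42 ± 0.22 (SE; adjusted p = 7.53e-36). NCU06911 fell to 2.04, 2.31 and 2.74 FPKM and NCU06912 to 0.619, 0.96 and 1.33, with differences of -6.29 ± 0.41 (SE; adjusted p = 2.54e-21) and -6.22 ± 0.47 (SE; adjusted p = 8.75e-19). NCU08495 fell by 2.05 ± 0.30 (SE; adjusted p = 9.4e-09). Of the conidiation markers 3 of 8, con-8 among them, rose in glycine.

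In arginine 47 rose (46 without NCU09968 and NCU09969) and 6 fell, with a median of 1.27 (all genes, 0.02), beside 15.9% and 14% of all genes. Of the conidiation markers 2 of 8 rose. NCU09788 rose from 1.6, 1.63 and 2.41 FPKM to 31.8, 45 and 64.2, by 4.01 ± 0.26 (SE; adjusted p = 1.17e-21). NCU04435 rose by 3.62 ± 0.26 (SE; adjusted p = 2.33e-19) and NCU10276 by 3.59 ± 0.22 (SE; adjusted p = 1.77e-22). NCU06911 fell by 4.41 ± 0.41 (SE; adjusted p = 9.38e-15), NCU06912 fell by 3.67 ± 0.47 (SE; adjusted p = 3.01e-10) and NCU03255 fell by 2.04 ± 0.28 (SE; adjusted p = 1.79e-09). NCU03255 neighbours NCU03257, which rose in arginine, so members of 1 run did not always move together.

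When sucrose was replaced or removed, with ammonium nitrate present, entries moved in both directions, as did all genes tested. In mannose 33 entries (41.8%) rose and 21 (26.6%) fell (20 without NCU09968), beside 23.1% and 18.6% of all genes. In carbon starvation 26 (32.9%) rose and 22 (27.8%) fell, beside 21.2% and 17.9%. The set's medians were 0.43 and 0.09. The medians of all genes were 0.12 and 0.09, against which those of the set are read. These media differ from glutamine in nitrogen source as well as in sugar, and the share of each cannot be told apart.

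con-8 (NCU09235) rose most in mannose, from 1.85, 3.44 and 4.81 FPKM in glutamine to 271, 594 and 738, by 6.88 ± 0.56 (SE; adjusted p = 1.32e-17). In carbon starvation it lay at 243, 360.0 and 386 and rose by 6.27 ± 0.56 (SE; adjusted p = 8.51e-16). All 8 conidiation markers rose in both media, and their sum was 7444 to 14655 FPKM in mannose and 26314 to 34936 in carbon starvation. NCU10591 rose from 2.05, 2.44 and 4.24 FPKM to 102, 145 and 160.4 in mannose and 275, 322 and 399 in carbon starvation, by 5.14 ± 0.69 (SE; adjusted p = 1.04e-09) and 6.44 ± 0.69 (SE; adjusted p = 1.01e-12). NCU03761 rose by 5.16 ± 0.22 (SE; adjusted p = 3.43e-31) in mannose and NCU07894 by 4.13 ± 0.56 (SE; adjusted p = 1.5e-09) in carbon starvation. The part of conidiation in these rises was not tested.

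Of the entries that fell, NCU03257 went from 92.1, 97.6 and 98.5 FPKM in glutamine to 8.05, 9.86 and 13.2 in mannose, a difference of -3.12 ± 0.15 (SE; adjusted p = 1.12e-27). NCU08648 went from 31.4, 32.7 and 34.6 to 2.5, 2.63 and 3.87 in carbon starvation, a difference of -3.10 ± 0.26 (SE; adjusted p = 1.16e-16). NCU06911 and NCU06912 fell in both, with differences of -3.55 and -3.67 in mannose and -5.58 and -5.58 in carbon starvation. lao (NCU01066) also fell, to 2.92, 3 and 3.84 FPKM in mannose and 2.68, 2.92 and 3.42 in carbon starvation. NCU01348, the gene with the widest gap in Δnit-2, fell under 2 FPKM in both media, at 0.681, 0.728 and 0.969 and 0.388, 0.575 and 1.46, against 9.54, 10.2 and 14 in glutamine.

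**Figure D4:**
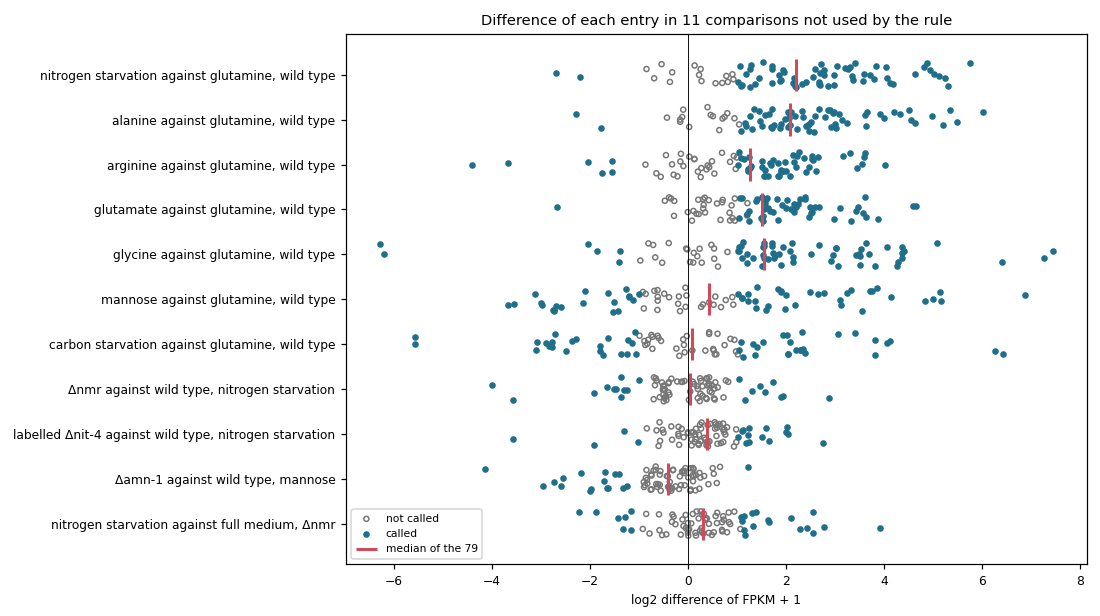
Log2 difference of each of the 79 entries in the 11 tested comparisons; filled points were called by limma, open points were not, and red bars are the set's medians. Most points lie right of 0 for starvation and the amino acids against glutamine, with medians of 1.27 to 2.21, while mannose and carbon starvation spread to both sides; the left points of Δnmr and labelled Δnit-4 include NCU09968 and NCU09969.

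Loss of nmr, which holds NIT2 in check, was measured in full medium and without nitrogen. In full medium 40 of the 79 entries lay at least 1 log2 higher in Δnmr than in wild type and 6 lower (4 without NCU09968 and NCU09969), beside 2.43% and 2.15% of all genes. The wild type libraries of full medium took part in the choice, so no test is given. NCU02361 lay at 25.2, 26.9, 27, 30.1 and 35.1 FPKM in wild type and 576, 699 and 774 in Δnmr. NCU04435 lay at 8.25, 8.33, 11.5, 11.5 and 13.9 and 154, 166 and 174, and lao (NCU01066) at 25.7, 32.4, 33.9, 38.8 and 38.8 and 449, 505 and 519. In each the Δnmr libraries were all above the wild type. Conidiation markers summed to 125 to 142 FPKM in Δnmr and 51.0 to 134 in wild type. Mitochondrial transcripts took 0.00285 to 0.00399% of FPKM in Δnmr and 0.00827 to 0.0197% in wild type, without overlap, and their part was not tested. NCU05518 stood 4.27 log2 higher, NCU07129 3.92, NCU01185 3.33 and NCU06416 2.94.

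The median of the entries' group means was 5.72 in Δnmr in full medium, 4.35 in wild type in full medium and 5.91 in starved wild type. NCU08397 lay at 54.1, 58.7, 62.5, 63.8 and 82 FPKM in wild type and 29.1, 57.7 and 69.5 in Δnmr in full medium, which overlap. NCU09773 lay at 0.723, 0.989, 1.37, 1.4 and 1.76 and 1.92, 4.18 and 4.48. NCU06911 and NCU06912 were lower in Δnmr, with differences of -2.21 and -1.62, from 174, 228, 239.8, 288 and 299 to 49.2, 52.4 and 53.2 for the first.

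**Figure D5:**
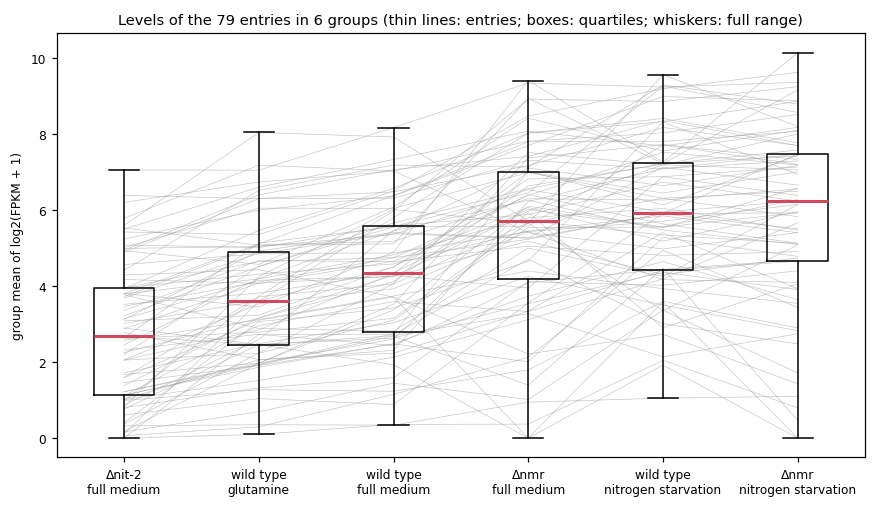
Group means of log2(FPKM + 1) of the 79 entries (thin lines) in 6 groups of strain and medium, with boxes for the quartiles, red bars for the median and whiskers for the full range. The medians rise from 2.68 in Δnit-2 in full medium to 3.61 in wild type in glutamine, 4.35 in wild type and 5.72 in Δnmr in full medium, and 5.91 and 6.23 in starved wild type and Δnmr.

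Without nitrogen 9 entries rose in Δnmr and 11 fell (9 without NCU09968 and NCU09969), beside 1.52% and 3.72% of all genes, with a median of 0.05 (all genes, -0.01). In the per-sample values NCU02361 lay at 1717, 1778 and 458 FPKM in Δnmr. Wild type held 87.5, 1225 and 719 in libraries 1 to 3 and 52.1, 57.9 and 63.3 in 4 to 6, which overlap the mutant only in the first set. The difference over all 6 was 2.88 ± 0.49 (SE; adjusted p = 2.02e-06), and 1.39 and 4.26 against either set. lao (NCU01066) differed by 1.93 ± 0.39 (SE; adjusted p = 4.5e-05), and by 1.09 and 2.68. NCU05164 differed by 1.89 ± 0.40 (SE; adjusted p = 8.77e-05), and by 2.71 and 0.97, where the latter was not called. Fitted on the 2 groups alone, lao (limma adjusted p = 0.107) and NCU02361 (limma adjusted p = 0.113) were not called.

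NCU10591 fell: it was listed at 0 in 2 of 3 Δnmr libraries and at 1.66 FPKM in the third, against 3.47 at the lowest, 31.1 at the median and 57.3 at the highest in wild type. The limma difference was -4.0 ± 0.60 (SE; adjusted p = 1.56e-07) on the log2(FPKM + 1) scale. con-8 (NCU09235), NCU10152, NCU08495, NCU09774, NCU09773, NCU07894, NCU08398 and NCU08397 were also called lower over all 6 wild type libraries. Of these NCU09773 was called against either set alone, with differences of -1.23 against libraries 1 to 3 and -1.89 against 4 to 6. NCU08495 was called only against libraries 1 to 3, and the others only against 4 to 6. Against libraries 1 to 3 the difference was -0.15 for NCU08397, 0.41 for NCU07894 and 0.09 for con-8, and against 4 to 6 it was -2.68, -3.28 and -3.15. The calls of NCU07894, NCU10152 and con-8 were also lost when 1 library was left out, con-8 only without the Δnmr library numbered 3 in the joint table (difference -1.12, limma adjusted p = 0.0995). NCU07894 lost its call without any 1 of 5 libraries, at -1.09 to -0.98, and NCU10152 without any 1 of 4, at -0.97 to -0.85. Conidiation markers summed to 239 to 389 FPKM in starved Δnmr and 71.6 to 7325 in starved wild type, and 1 of 8, con-8, fell. Mitochondrial transcripts took 0.00362 to 0.00508% of FPKM in starved Δnmr and 0.0119 to 0.0226% in starved wild type, and the part of either in these differences was not tested. Fitted on the 2 groups alone, 3 entries rose and 6 fell. With wild type libraries 1 to 3 alone 9 entries rose and 10 fell, and with libraries 4 to 6 alone 14 rose and 16 fell. Shares of all genes in these fits are not given here, so the counts show only how the number moved with the libraries used.

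Within Δnmr, starvation was compared with full medium, using no wild type library. Here 17 entries rose and 7 fell, with a median of 0.31 (all genes, 0.08), beside 4.24% and 9.73% of all genes. In wild type the same change of medium put 56 entries at least 1 higher and 2 lower, with a median of 1.69, beside 8.07% and 8.78% of all genes, as a description. The difference between these strains' responses was not tested. NCU09406 rose in Δnmr from 9.75, 10.3 and 12.3 FPKM to 129, 174 and 247, by 3.92 ± 0.47 (SE; adjusted p = 1.72e-10). NCU05908 rose by 2.77 ± 0.44 (SE; adjusted p = 2.53e-07) and NCU08397 by 2.55 ± 0.45 (SE; adjusted p = 2.1e-06), though the starved Δnmr libraries of both were spread. NCU05908 lay at 34.2 ± 31.6 FPKM (SD, n = 3) there and NCU08397 at 189.6, 197 and 666. NCU03761 went from 24.7, 25.2 and 25.4 to 3.76, 4.1 and 6.09, a difference of -2.23 ± 0.22 (SE; adjusted p = 1.39e-13). NCU01185 fell by 1.88 ± 0.28 (SE; adjusted p = 4.65e-08) and NCU01356 fell by 1.43 ± 0.21 (SE; adjusted p = 7.13e-08).

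The libraries labelled Δnit-4 showed few decreases. Without nitrogen 14 entries rose and 4 fell against wild type, of which NCU09968 and NCU09969, at or near 0 there, make 2. The shares of all genes were 1.51% and 3.82%, and the median was 0.38 over the set and 0.04 over all genes. NCU09406 lay at 261, 297 and 845 FPKM in the labelled Δnit-4 libraries and 19.4 at the lowest, 55 at the median and 197 at the highest in wild type, and rose by 2.75 ± 0.41 (SE; adjusted p = 4.33e-07). NCU05164 rose by 2.05 ± 0.40 (SE; adjusted p = 5.82e-05) and NCU04994 by 2.02 ± 0.36 (SE; adjusted p = 1.17e-05). In the per-sample values, the rises of NCU07129, NCU07894 and NCU09506 were called only against wild type libraries 1 to 3. Those of NCU04430, NCU06697 and NCU11411 were called only against 4 to 6, and the other rises against either set. NCU07129 and NCU07894 differed by 3.36 and 3.35 against libraries 1 to 3 and by -0.24 and -0.35 against 4 to 6. NCU08495 fell by 1.32 ± 0.26 (SE; adjusted p = 5.39e-05) over all 6 wild type libraries. Against libraries 4 to 6 alone its difference was -0.83 and not called, and a fit of the 2 groups alone did not call it (limma adjusted p = 0.0905). NCU08225 was the other called lower, at -1.02. Its call was lost against libraries 4 to 6 alone (-0.74) and when 1 of 3 single libraries was left out, at -0.94 to -0.85.

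With wild type libraries 1 to 3 alone 31 entries were called in the labelled Δnit-4 comparison, and the number was 11 without the library of that strain numbered 2 in the joint table. For these fits the shares of all genes are not given here, so neither count is read as particular to the set. Conidiation markers summed to 222 to 343 FPKM in these starved libraries and 71.6 to 7325 in starved wild type. Mitochondrial transcripts took 0.00505 to 0.00851% of FPKM there and 0.0119 to 0.0226% in starved wild type, without overlap, and the part of either was not tested. In nitrate 26 entries lay at least 1 log2 higher and 3 lower (1 without NCU09968 and NCU09969, NCU08495) than in wild type, beside 3.52% and 3.84% of all genes, with a median of 0.65. Wild type libraries in nitrate took part in the choice, so this is a description. Conidiation markers summed to 1839 to 3230 FPKM in the labelled Δnit-4 libraries in nitrate and 220 to 337 in wild type, and their part was not tested. NCU09406 was 4.21 higher, NCU07894 2.62, NCU04435 2.52 and NCU04994 2.50.

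In mannose 16 entries fell in Δamn-1 and 1 rose, beside 8.99% and 7.91% of all genes, with a median of -0.41 (all genes, -0.04). NCU10276 fell from 555, 648 and 736 FPKM in wild type to 31.3, 37.1 and 38.8, a difference of -4.14 ± 0.22 (SE; adjusted p = 1.9e-24). No other wild type medium gave NCU10276 a higher mean than mannose, and the mutant stood near its level in glutamine, 31, 45.1 and 56.9. NCU03761 fell from 131, 279 and 359 to 26.6, 28.9 and 33.8, a difference of -2.95 ± 0.22 (SE; adjusted p = 3.28e-18). The merged entry NCU01064,NCU01065 fell by 2.73 ± 0.27 (SE; adjusted p = 1.49e-13). NCU16993 alone rose, from 9.02, 9.08 and 9.4 to 21.9, 22.9 and 23.8, by 1.23 ± 0.17 (SE; adjusted p = 1.12e-08). Of the conidiation markers 4 fell, con-8 (NCU09235) among them, and 1 rose. The call of con-8 was lost when any 1 of 4 libraries was left out, at -1.28 to -1.03 (limma adjusted p 0.084 to 0.166). The summed level of the markers was 23502 to 32081 FPKM in Δamn-1 and 7444 to 14655 in wild type, higher although more markers fell than rose.

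In the amino acids, whose wild type libraries took part in the choice, Δamn-1 is described without a test. In isoleucine 1 entry lay at least 1 log2 higher and 2 lower (1 without NCU09968), beside 0.444% and 0.456% of all genes. In tryptophan it was 1 and 3, beside 0.362% and 0.584%. In proline it was 15 and 6, beside 3.2% and 2.37%. NCU05518 lay at 23.5, 27.2 and 31.9 FPKM in wild type and 342, 403 and 479 in Δamn-1 in proline. lao (NCU01066) lay at 151, 158 and 191 and 1315, 1322 and 1673. Both mutant groups were wholly above the wild type. lao was also the entry past 1 log2 on the higher side in isoleucine, at 1.23, and in tryptophan, at 1.03, though its mutant libraries were spread, at 149.7, 256 and 529 and 267, 386 and 968 FPKM, and those of isoleucine overlapped wild type. NCU09506, of the run on chromosome III, differed by -1.67 in proline and -1.76 in tryptophan, and its neighbour NCU11405 by -1.03 and -1.61.

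Other genes of nitrogen metabolism were taken from lists of symbols. Of 3 nitrate assimilation genes (nit-3, nit-6 and nit-10, for nitrate reductase, nitrite reductase and a nitrate transporter), 1 lay at least 1 lower in Δnit-2 in 4 or more of the 5 media, as did 2 of 3 purine genes (aln-1 and alc-1 but not xdh-1), 2 of 5 of ammonium assimilation (am and gln-1), 1 of 3 of amino acid uptake (pmg) and 1 of 3 of amino acid breakdown (lao, NCU01066). All of these except lao were set aside by name. Without nitrogen against glutamine all 3 nitrate genes rose, nit-3 by 4.74 ± 0.74 (SE; adjusted p = 9.61e-08) and nit-6 by 5.22 ± 0.84 (SE; adjusted p = 2.1e-07). Of the purine genes xdh-1 and aln-1 rose, by 2.24 ± 0.20 (SE; adjusted p = 2.13e-15) and 2.09 ± 0.22 (SE; adjusted p = 7.83e-13), and of the uptake genes pmg rose by 3.03 ± 0.16 (SE; adjusted p = 2.88e-24) while mtr fell by 2.15 ± 0.37 (SE; adjusted p = 8.55e-07). Of the breakdown genes lao rose, and aga-1, arginase, fell by 1.11 ± 0.18 (SE; adjusted p = 1.98e-07).

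In starved Δnmr all 3 nitrate genes fell, of which nit-10 shares an entry with a neighbour: nit-3 fell by 2.63 ± 0.74 (SE; adjusted p = 0.00246) and nit-6 fell by 3.75 ± 0.84 (SE; adjusted p = 0.000195). In the libraries labelled Δnit-4 all 3 fell as well, and nit-6 fell by 4.76 ± 0.84 (SE; adjusted p = 1.05e-05). Among the nitrate genes nit-3 lay at 217 ± 240 FPKM (SD, n = 6) in starved wild type, a spread as wide as its mean. Differences of the listed genes outside the set were not checked against either set of starved wild type libraries alone. In arginine ota, ornithine transaminase, rose by 3.39 ± 0.13 (SE; adjusted p = 4.95e-32), aga-1 by 2.08 ± 0.21 (SE; adjusted p = 8.49e-14) and pmb, a basic amino acid permease, by 1.25 ± 0.22 (SE; adjusted p = 8.11e-07).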

How the data were processed

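RNA-seq was measured in 86 libraries that the labels call biological replicates. HISAT2 2.1.0, Cufflinks 2.2.1 and Cuffnorm 2.2.1 are named in the submitters' processing notes. The values deposited by the authors are FPKM, in a joint table of 9598 entries (153 merge overlapping genes) and in 1 table per library of 9758 genes. Genome build and strand setting: not given in the sources used here. Columns of the joint table carry a group and a number that is not the label's, so label numbers come from the per-library tables. Depths were estimated by summing fragment numbers derived from each FPKM and its upper confidence bound. Of the low fragment numbers 78.3% came out whole, so no count test was run. No pair among the 100 replicate pairs held identical values.

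From the FPKM, log2(FPKM + 1) was fitted with limma 3.58.1 in R 4.3.3, with 1 mean per group over all 86 libraries and a trended prior. Fold changes on this scale understate those of low genes. Genes with at least 1 FPKM in 3 or more libraries were tested (8558), with 59 residual degrees of freedom, and p-values were adjusted by Benjamini-Hochberg over them. All 79 entries passed this filter. The tests number 11 and the described contrasts 13. The fit was tested on simulated data. The neighbours use assembly NC12 of the reference gene table, whose starts match those of the files counted from 1. Tables and figures were made with pandas 2.3.3, matplotlib 3.10.9 and numpy 2.4.6 under Python 3.11.15.

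The members and gene lists were chosen with earlier results of these data known. Named are the members with a symbol, the 12 largest mean decreases, up to 3 called members in each direction per test, the 3 nearest the rule's threshold on either side, the deleted genes and listed pathway genes. Other loci were named after their values were seen. None of the 4 molybdenum cofactor genes listed matched a symbol. No sequence is shown, since none is in the tables used here.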

Additional observations from a re-analysis of the deposited data

Results flagged for a closer look

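The 37 named members were each checked in wild type for a library far from the rest, in full medium (5 libraries) and without nitrogen (6 libraries). Of these 74 checks, 11 found one. The limit used lets through about 1 in 20 checks of independent normal values. The checks share the same libraries and are not independent, so the 11 are not set against that rate. Of these, 6 lay in starved wild type, where the library labelled 2 was the highest: NCU04435 at 465 FPKM, NCU08407 at 287, NCU09909 at 406, lao (NCU01066) at 782, NCU05518 at 281 and NCU09406 at 197. The medians of the 6 libraries were 182, 85.3, 120.2, 88.0, 52.4 and 55.0. The other 5 lay in wild type in full medium, with NCU06416 at 44.2 (median 66.4), NCU09774 at 0.117 (0.318), NCU07894 at 12.2 (9.29), NCU08495 at 8.21 (13.1) and NCU05164 at 9.81 (5.52).

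Some members changed direction between media, in that every library of a deletion lay above wild type in 1 medium and below it in another. These differences between media were not tested. In Δnit-2, lao was 0.42 log2 higher in full medium, con-8 0.54, NCU09968 0.58 and NCU09969 0.75, and each was lower in the other 4 media. For the last pair, at or near 0 in those 4 media, strain stock and medium cannot be told apart. In Δnmr, NCU09773 was 0.97 higher in full medium and lower without nitrogen. In Δamn-1, NCU05518 was 3.84 higher in proline, lao 3.10, NCU02361 2.94, NCU04435 1.96 and NCU05164 1.22, and lao was 1.03 higher in tryptophan, and all were lower in mannose. NCU16993 was 1.23 higher in mannose and lower in proline. For Δamn-1 only changes of at least 1 log2 on the higher side are given, a limit chosen after the values were seen, and 12 smaller ones are left out.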

How the results depend on the processing

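The number of entries depends on the rule: 38 in all 5 media, 132 in 3 or more, and 40 at 1.5 log2. It was 97 with a pseudocount of 0.1, 78 at 10 FPKM, 82 from per-library values, 81 with median-ratio scaling, 77 without NCU09968 and NCU09969, and 75 to 81 when 1 library was left out. In the tests, called entries stayed within 1.5 times the reported number under each pseudocount, filter and scaling tried. The exceptions were in starved mutants. For Δnmr (20 called), the 2 groups alone gave 9, and per-library values for these groups gave 10 (added after seeing the data). For labelled Δnit-4 (18 called), the 2 groups alone gave 11, wild type libraries 1 to 3 alone gave 31, and leaving out its library 2 gave 11. Shares of all genes called are not given for these settings or those below, so the counts show only how the number moved. The causes were not tested.

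Leaving out 1 library gave 60 to 66 entries for nitrogen starvation, 63 to 64 for alanine, 48 to 54 for arginine, 50 to 52 for glutamate, 57 to 61 for glycine, 51 to 54 for mannose and 47 to 50 for carbon starvation, each against glutamine. It gave 16 to 26 for starved Δnmr, 11 to 20 for starved labelled Δnit-4, 15 to 19 for Δamn-1 in mannose and 17 to 24 for starvation within Δnmr.

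Replicate numbers did not pair the libraries: no comparison had all 3 correlations of same-numbered libraries over 0.1. With the replicate block, the calls numbered 62 for nitrogen starvation, 64 for alanine, 52 for arginine, 51 for glutamate, 58 for glycine, 53 for mannose, 47 for carbon starvation, 9 for starved Δnmr, 27 for starved labelled Δnit-4, 16 for Δamn-1 and 21 for starvation within Δnmr. Of the calls named, NCU06912 without nitrogen, and lao (NCU01066), NCU02361 and NCU10591 in starved Δnmr, were not called with the block. Their differences there, -0.78, 1.09, 1.39 and -2.80, equalled those with starved wild type libraries 1 to 3 alone. Label numbers of glutamine and the starved mutants stop at 3, so the later starved wild type libraries had no partner in the block. Where starved wild type was compared, pairing and the loss of those libraries therefore cannot be told apart. FPKM of low genes is limited by depth.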
